A study of Mus musculus with 6 samples.

Results

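Mesothelium is the flat epithelium that covers the pancreas and the other organs of the body cavities. In the embryo its cells can leave the surface and add to the mesenchyme beneath it, and the transcription factor Wt1 and the surface glycoprotein mesothelin are its usual marks. Here 8 genes known as mesothelium markers, Wt1, Msln, Upk1b, Upk3b, Lrrn4, Bnc1, Tcf21 and Gpm6a, were read in 6 mouse pancreata. They were chosen by symbol, and all 8 were found among the 54735 gene symbols of the count tables and among the 19070 genes that passed the filter on low counts.

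Whole pancreas was taken from embryos at e16.5 on a mixed C57Bl6/129SV background, and total RNA was sequenced. All 6 samples carried Neurog3:cre, a recombinase under the control of a gene of endocrine progenitors. The 3 control samples had the genotype Neurog3:cre alone, and the 3 RARdn samples had Neurog3:cre;RARdnfl/fl, where RARdn commonly stands for a receptor for retinoic acid that acts as a dominant negative. Endocrine progenitors lie inside the epithelium of the organ, so the mesothelium is not the cell type that the driver is named for, and whether any mesothelial cell had recombined was not measured. Litters and days of dissection are not in the labels, so the p-values measure only the spread between these samples, which may be technical.

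Depth was 35256531 to 52015498 counts in genes per library. Ddx3y, a gene of the Y chromosome, was at 41.6 to 57.8 CPM in control 2 and all RARdn libraries, which were therefore male, and had no count in the female control 1 and 3. Reads that matched no counted feature took 7.60% to 8.99% of all reads in controls and 2.90% to 5.30% in RARdn libraries, without overlap. Whether these lay in introns or between genes is not known. Digestive enzyme and other acinar genes took 7.32%, 22.3% and 27.3% of the counts in RARdn 1, 2 and 3 and 17.8% to 19.2% in controls, which moves the CPM of every other gene. A plain CPM is a count scaled to a common total of counts in genes. The test and the levels after TMM scaling, edgeR's correction for such shifts in composition, are named where they are used.

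Wt1 encodes a zinc finger transcription factor and Tcf21 a basic helix-loop-helix factor, and both bind short DNA motifs, so the promoters of the members were read for those letters. RefSeq promoters (GRCm38.p6) were found for 5 members, with 2 entries for Gpm6a. The Wt1-type motif GNGTGGGNG, searched on both strands in the 250 bases before the start, was in 1 of the 6 member promoters and in 12.7% of 32851 promoters of the same length. The Tcf21-type motif CAGCTG, which reads the same on both strands, was in 0 of 6 and in 13% of all. The promoter with the Wt1-type letters, that of Lrrn4, is shown with the same stretch of Upk3b, the most abundant member, for comparison. Both run from 250 to 131 bases before the start, 5′ to 3′ on the gene's strand (Lrrn4 chr2:132880993-132881112, minus strand; Upk3b chr5:136038246-136038365, plus strand), and capitals mark the motif. It begins 219 bases before the start of Lrrn4, and the Upk3b stretch holds none.
Lrrn4: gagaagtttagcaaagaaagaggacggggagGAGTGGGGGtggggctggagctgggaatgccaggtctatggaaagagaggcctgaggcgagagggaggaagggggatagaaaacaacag
Upk3b: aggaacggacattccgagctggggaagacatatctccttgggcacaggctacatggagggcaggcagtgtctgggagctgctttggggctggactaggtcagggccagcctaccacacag

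RARdn and control pancreata were then compared for the members. None of the 8 members was called by edgeR's quasi-likelihood test at an adjusted p under 0.05, where 4.02% of all genes tested were called. At an unadjusted p under 0.05 there was 1 member, Msln, against 22.2% of all genes. DESeq2 called the same 1, beside 6.64% of the genes it fitted. The fitted log2 fold changes of the members had a median of 0.43, beside 0.00051 over all genes tested, and 6 of 8 lay above 0, beside 50.0% of all genes. Of these 6, Upk1b, Upk3b, Lrrn4 and Gpm6a turned to values below 0 when libraries were scaled to 18 mesenchyme genes, a scaling that moved the median of all genes to -0.59. Relative to all genes, the members' median was 0.46 with that scaling and 0.43 with TMM. Without RARdn 2 the members' median was 0.03 and without control 1 it was 0.80. In these bulk samples a difference in the number of mesothelial cells and a difference in RNA per cell cannot be told apart.

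**Figure D1:**
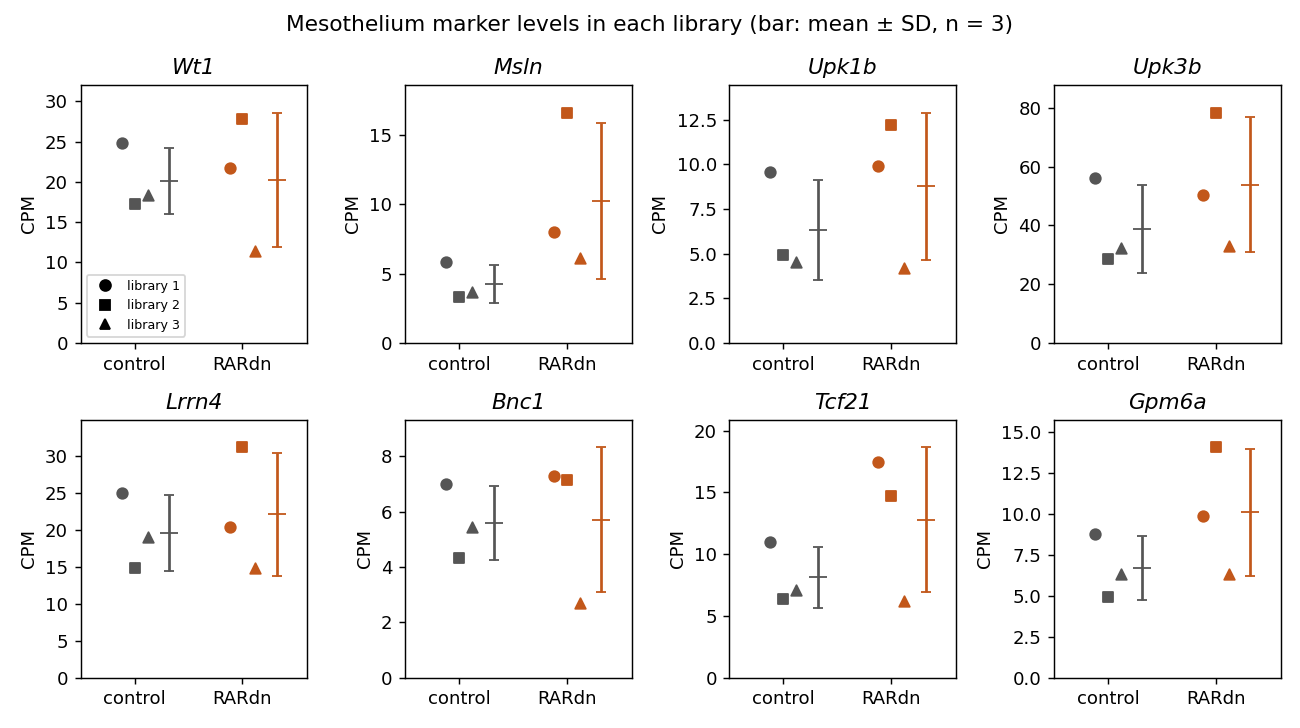
CPM of each of the 8 members (vertical axes, linear from 0) in the 3 control and 3 RARdn libraries; symbols mark the library number and bars the mean ± SD (n = 3). RARdn 3 was the lowest RARdn library for every member, and only for Msln did the RARdn libraries lie above all controls.

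Among the regulators, Wt1, a factor of mesothelium and of the mesenchyme that derives from it (chromosome 2, 105126529 to 105173616, GRCm38), was at 24.8, 17.2 and 18.4 CPM in control 1, 2 and 3, in that order, and at 21.7, 27.8 and 11.4 CPM in RARdn 1, 2 and 3, the order used for all members. The RARdn libraries held both the highest and the lowest value. The means were 20.2 ± 4.09 and 20.3 ± 8.32 CPM (SD, n = 3), and the log2 fold change was -0.03 (SE 0.27, edgeR adjusted p = 0.956).

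Bnc1, which encodes basonuclin 1, a zinc finger protein also known from keratinocytes and germ cells (chromosome 7, 81966672 to 81992292), was at 7.0, 4.34 and 5.46 CPM in controls and at 7.28, 7.15 and 2.70 CPM in RARdn libraries. Its groups overlapped (log2 -0.04, SE 0.31, edgeR adjusted p = 0.959). Bnc1 shares exon bases with 4833418N17Rik on the other strand, so its reads are uncertain where the counting ignored strand. Its 95 counts in RARdn 3, the lowest of any member, gave an exact Poisson 95% interval of 2.18 to 3.29 CPM, which covers counting error only.

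Tcf21, a factor of the mesenchyme of visceral organs as well as of the mesothelial lineage (chromosome 10, 22817281 to 22820174), was at 10.97, 6.37 and 7.06 CPM in controls and at 17.5, 14.7 and 6.24 CPM in RARdn libraries. In CPM, RARdn 1 and 2 lay above all controls and RARdn 3 below all of them. After TMM scaling RARdn 3 (7.24 CPM) lay above control 2 (6.35 CPM). The log2 fold change was 0.58 (SE 0.30, edgeR adjusted p = 0.298). Without RARdn 3 the gene was called (log2 0.85, edgeR adjusted p = 0.0451), as were 14.8% of all genes. Tcf21 lies within bounds that Gm10824 overlaps on the other strand.

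Among the surface proteins, Msln encodes mesothelin, a lipid-anchored glycoprotein that binds the mucin Muc16 (chromosome 17, 25748613 to 25754378). It was at 5.83, 3.29 and 3.65 CPM in controls and at 7.97, 16.6 and 6.10 CPM in RARdn libraries. All RARdn libraries lay above all controls, as 8.13% of the genes tested did in CPM. With TMM scaling the RARdn libraries also lay above all controls, as they did for 13.9% of the genes tested. The means were 4.26 ± 1.38 and 10.2 ± 5.61 CPM, a 2.39-fold difference (log2 1.25, SE 0.39, edgeR adjusted p = 0.109). Over 15 alternatives the log2 fold change of Msln ran from 0.67 without RARdn 2 to 1.64 with a term for sex, and the adjusted p from 0.00815 to 0.381. It was called by DESeq2 (adjusted p = 0.0102), beside 6.64% of all genes, and without a filter on low counts (edgeR adjusted p = 0.00815), beside 6.92%. It was also called without RARdn 3 (edgeR adjusted p = 0.0486), beside 14.8% of all genes, and with scaling to mesenchyme (0.0474), under which 51.4% were called.

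Upk3b and Upk1b encode uroplakins, membrane proteins named for the plaques of the bladder lining that mesothelium also makes. Upk3b (chromosome 5, 136038496 to 136046487), whose promoter stretch is printed above, was at 55.95, 28.4 and 32.1 CPM in controls and at 50.2, 78.4 and 32.8 CPM in RARdn libraries. RARdn 2 was the highest library, but control 1 lay above RARdn 1 and 3 (log2 0.44, SE 0.33, edgeR adjusted p = 0.466). Upk1b (chromosome 16, 38773184 to 38800328) was at 9.57, 4.90 and 4.53 CPM in controls and at 9.93, 12.2 and 4.17 CPM in RARdn libraries. It spread as widely within each group as between them (log2 0.42, SE 0.38, edgeR adjusted p = 0.555).

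Lrrn4, which encodes a leucine-rich repeat membrane protein (chromosome 2, 132868305 to 132880891), was at 24.97, 14.75 and 19.0 CPM in controls and at 20.3, 31.1 and 14.75 CPM in RARdn libraries. In CPM, control 2 and RARdn 3 stood at the same low level (log2 0.15, SE 0.28, edgeR adjusted p = 0.797). After TMM scaling these libraries were at 14.7 and 17.1 CPM. Gpm6a encodes a membrane glycoprotein of the proteolipid family that neurons make in quantity (chromosome 8, 54954843 to 55060871), and was at 8.76, 4.90 and 6.34 CPM in controls and at 9.89, 14.1 and 6.30 CPM in RARdn libraries. In CPM, RARdn 1 and 2 lay above all controls and RARdn 3 within them (log2 0.57, SE 0.30, edgeR adjusted p = 0.310). After TMM scaling Gpm6a in RARdn 1 (8.10 CPM) lay below control 1 (8.82 CPM).

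Levels per length put Upk3b on top. Per kilobase of merged exon in GENCODE M21, Upk3b was at 11 ± 4.23 CPM in controls and at 15.2 ± 6.51 CPM in RARdn libraries. Lrrn4 followed with 5.27 ± 1.38 and 5.94 ± 2.24 CPM per kilobase. In controls Tcf21 (3.46 ± 1.06), Wt1 (3.26 ± 0.660) and Upk1b (3.03 ± 1.34) came next and differed among themselves by less than their SD. Gpm6a (2.07 ± 0.608), Msln (1.39 ± 0.449) and Bnc1 (1.21 ± 0.288) were the lowest. In RARdn libraries Msln was at 3.34 ± 1.83 CPM per kilobase, beside 3.28 ± 1.34 for Wt1.

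The members moved together from library to library within each group. Control 1 was the highest control for 8 of 8 members, beside 40.2% of all genes tested, and RARdn 3 the lowest RARdn library for 8 of 8, beside 67.9%. RARdn 2 was the highest RARdn library for 6 of 8, beside 16.7%, the exceptions being Bnc1 and Tcf21, which were highest in RARdn 1. After TMM scaling these counts were 8 of 8 for control 1 (39.9% of genes), 6 of 8 for RARdn 3 (44.4%) and 8 of 8 for RARdn 2 (32.6%), and Msln and Lrrn4 were then lowest in RARdn 1. The median deviation of the members from their group mean, on a log2(CPM + 0.5) scale, was 0.43, -0.30 and -0.13 for control 1, 2 and 3, and it was 0.11, 0.54 and -0.67 for RARdn 1, 2 and 3. The members share libraries and depth, so these orders are a description of 6 libraries and not a test.

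**Figure D2:**
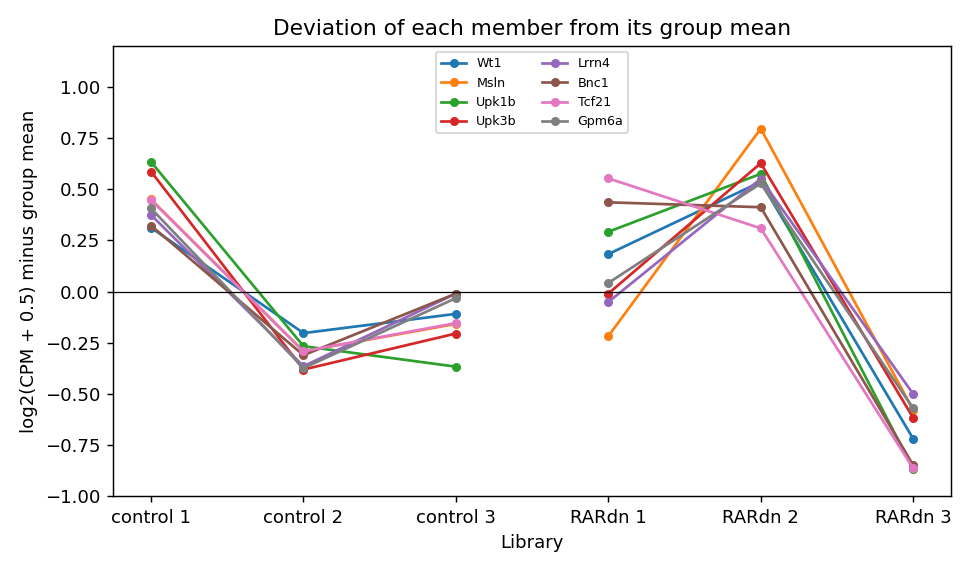
Deviation of log2(CPM + 0.5) from the gene's own group mean (vertical axis) for each member in each library (horizontal axis); lines join the values of 1 gene within a group and imply no order. All 8 members lay above 0 in control 1 and RARdn 2 and below 0 in control 2, control 3 and RARdn 3.

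The spread within groups was wide beside that of all genes tested with at least 2 CPM on average. That set had no upper limit on abundance. The highest RARdn library stood 2.11 to 2.92 times above the lowest over the 8 members, with a median of 2.58, beside a median of 1.53 over the 13586 genes tested that averaged at least 2 CPM. Among controls the members' median was 1.75, beside 1.16. Lrrn4 and Gpm6a kept the steadiest difference in log2(CPM + 0.5), with a within-group SD of that difference of 0.0625. Bnc1 and Tcf21 followed with 0.124. Msln and Tcf21 were the least steady pair (0.48), and that spread came from the RARdn libraries (0.68), since among the controls it was 0.0037. The control value lies below counting error, as the exact Poisson 95% interval of Msln in control 2 was 2.78 to 3.86 CPM.

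Ratios between members were taken next, since the amount of acinar tissue in a library cancels from them. The pair read, Msln and Wt1, sets the member of highest log2 fold change against 1 of the 2 below 0. Other pairs were not compared for overlap between groups. Msln counts per 100 Wt1 counts in control 1, 2 and 3 were 23.5, 19.1 and 19.8, and those of RARdn 1, 2 and 3 were 36.8, 59.7 and 53.6. All RARdn libraries lay above all controls, with means of 20.8 ± 2.36 and 50.0 ± 11.9 (SD, n = 3) and a ratio of geometric means of 2.37 (2-sided exact permutation p = 0.1, the smallest that 3 against 3 allows). This pair was picked by its fold changes in these same libraries, so its separation and p are a description and not a test. Of the counts of all 8 members, Msln took 3.88% ± 0.0850 in controls and 6.98% ± 1.37 in RARdn libraries. Wt1 took 18.8% ± 1.86 and 14.1% ± 0.794, and Gpm6a took 6.10% ± 0.401 and 7.08% ± 0.331. These 3 shares did not overlap between groups (2-sided exact permutation p = 0.1 each), nor did the count per member count of 10.2% of all genes tested. The other 5 shares overlapped, among them Upk3b with 34.9% ± 2.51 and 37.5% ± 2.39. The 8 shares sum to a whole, so a higher share of one lowers the others.

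**Figure D3:**
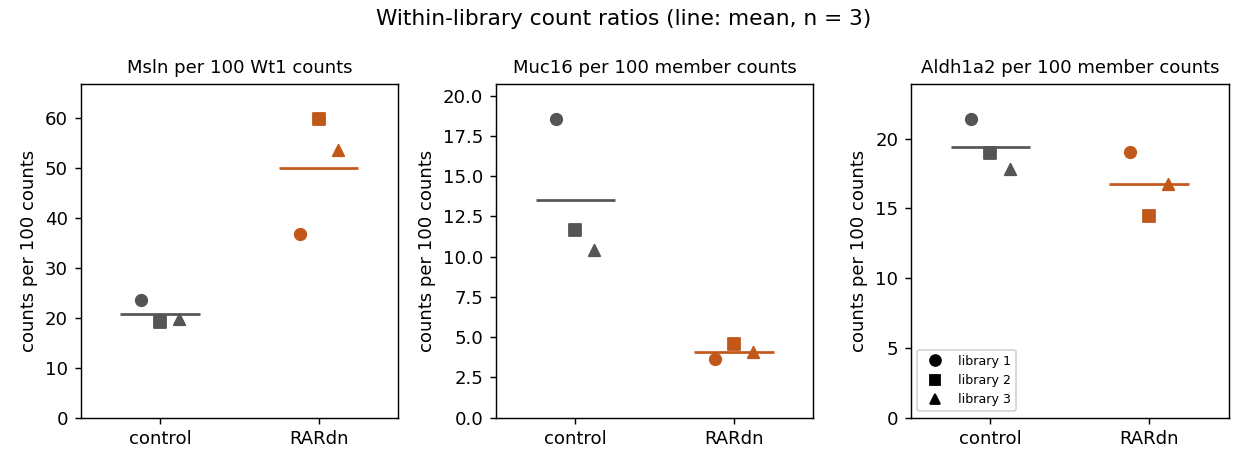
Msln counts per 100 Wt1 counts, Muc16 counts per 100 counts of the 8 members, and Aldh1a2 counts per 100 counts of the 8 members, in each library (linear axes from 0; lines, means, n = 3). The RARdn libraries lay above the controls for Msln per Wt1, below them for Muc16, and overlapped them for Aldh1a2.

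A further 20 genes known from mesothelium, several of them shared with ducts or mesenchyme, were read beside the members. Of these, 18 were tested, 1 rose and 0 fell, with a median log2 fold change of 0.19. The gene that rose was Stra6, through which cells take up retinol from its carrier. It was at 9.10, 5.70 and 7.65 CPM in controls and at 19.1, 39.3 and 101 CPM in RARdn libraries, library 1 to 3 in each (log2 2.93, SE 0.63, edgeR adjusted p = 0.0418). It was highest in RARdn 3, where every member had its lowest RARdn value. Its call was lost when control 1, 2 or 3 or RARdn 2 was left out (edgeR adjusted p = 0.0940, 0.158, 0.134 and 0.0832), with a term for sex (0.287), with a filter of at least 1 CPM in 3 libraries (0.0659) and with limma-voom (0.104). Stra6 overlaps Ccdc33 and Gm16131. The most abundant of the 18, Krt18, Krt8, Gata4 and Podxl, are also made by pancreatic epithelium or vessels, and had log2 fold changes from -0.55 for Krt8 to 0.03 for Podxl (edgeR adjusted p from 0.222 to 0.912).

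Some of these genes followed the members and others did not; those in the rest of this paragraph were chosen after their values were seen. Aldh1a2, the retinaldehyde dehydrogenase with which mesothelium and mesenchyme make retinoic acid, was at 31.6, 15.9 and 17.2 CPM in controls and at 27.6, 29.2 and 14.2 CPM in RARdn libraries (log2 0.08, SE 0.29, edgeR adjusted p = 0.898). Its counts per 100 member counts were 19.4 ± 1.83 and 16.8 ± 2.30 (exact permutation p = 0.3). Muc16, the mucin that mesothelin binds, was at 27.4, 9.84 and 10.1 CPM in controls and at 5.32, 9.19 and 3.43 CPM in RARdn libraries. It lay lower in all RARdn libraries than in any control, as 10.2% of the genes tested did, though it was not called (log2 -1.42, SE 0.46, edgeR adjusted p = 0.124). Without control 1 the log2 fold change was -0.76 (edgeR adjusted p = 0.297). Muc16 was called lower without a filter on low counts (edgeR adjusted p = 0.00916), beside 6.92% of all genes called. It was also called lower with scaling to mesenchyme (edgeR adjusted p = 2.26e-05), under which 51.4% of all genes were called. Per 100 member counts, Muc16 was at 18.5, 11.7 and 10.4 in controls and at 3.68, 4.55 and 4.06 in RARdn libraries (exact permutation p = 0.1, the smallest possible). Muc16, Krt8 and Krt18 were the 3 of the 18 other mesothelial genes that lay lower without overlap, beside 10.2% of all genes. Stra6 was the 1 that lay higher, beside 8.13%. Msln and Muc16 stood apart between groups in opposite directions, each without overlap, and neither was called with TMM scaling and the filter.

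**Figure D4:**
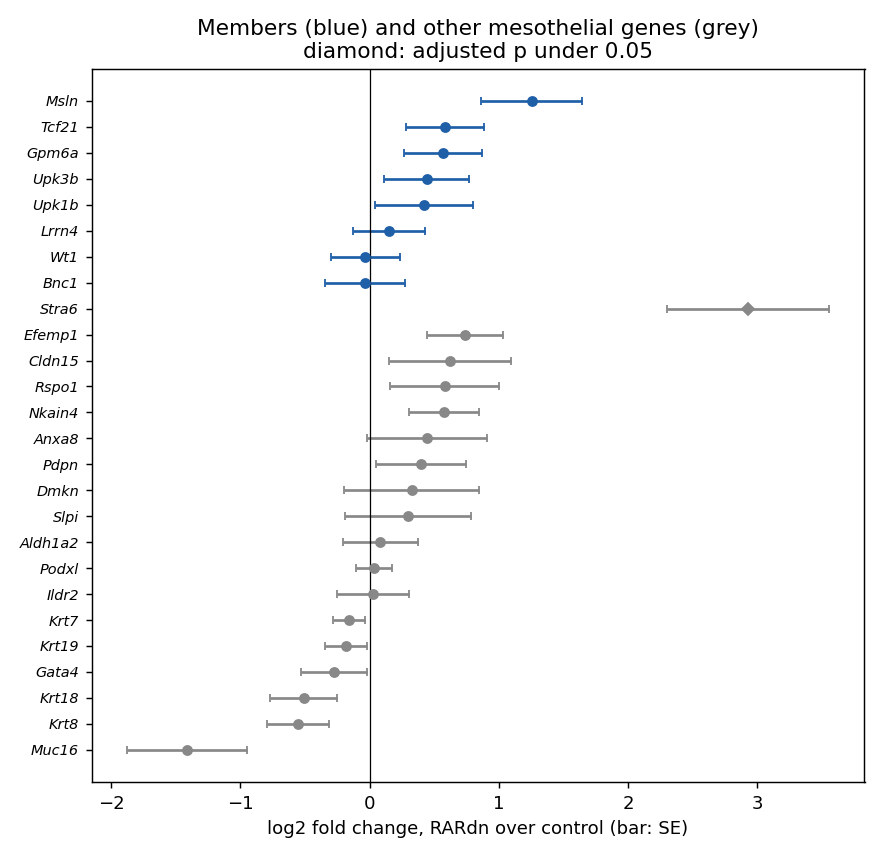
Fitted log2 fold change of RARdn over control (horizontal axis; bars, SE) with TMM scaling for the 8 members in blue and 18 other mesothelial genes in grey. Only Stra6, drawn as a diamond, had an adjusted p under 0.05; scaled to mesenchyme genes, which moved the median of all genes to -0.59, Upk1b, Upk3b, Lrrn4 and Gpm6a lay below 0, and the members' median relative to all genes was 0.46, beside 0.43 here.

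Likeness to the members' median profile was measured over the 6 libraries as the root mean square difference of log2(CPM + 0.5), each gene taken relative to its own mean. Of 13578 other genes that averaged at least 2 CPM, the nearest were Cyp2s1 (0.11 log2 units), Clec11a (0.13), Fcgr3 (0.13), Jdp2 (0.13) and P2rx7 (0.13). Cyp2s1 is a cytochrome P450 gene, Clec11a a secreted lectin-domain growth factor gene, Fcgr3 an immunoglobulin receptor gene of myeloid cells, Jdp2 a leucine zipper factor gene and P2rx7 an ATP-gated channel gene. Among the other mesothelial genes, Aldh1a2 ranked 16, Nkain4 50 and Ildr2 62, whereas Gata4 ranked 13128, Krt18 13174, Krt8 13238, Muc16 13313 and Stra6 13530. Of the mesenchyme genes, Meox1 ranked 15, Foxf1 78, Prrx1 145 and Thy1 152, with the other 13 of 17 ranked from 576 to 5393. Upk3b was the member nearest to the median of the other 7 (0.15) and Msln the farthest (0.47).

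The relatives of the members in their gene families were read in the same way. Of 12 such genes 10 were tested, 1 rose and 1 fell. Their median log2 fold change was 0.43, as it was for the members, and 8 of 10 lay above 0. The 8 relatives with a likeness rank ran from Lrrn3 at 357 and Bnc2 at 525 to Upk1a at 13433 of 13578. Lrrn1, a leucine-rich repeat gene of neural tissue, rose from 22.1 ± 3.11 to 41.0 ± 14.5 CPM (log2 0.83, SE 0.16, edgeR adjusted p = 0.0279). Upk1a, the tetraspanin partner of the bladder uroplakins, fell from 15.1 ± 3.26 to 7.20 ± 2.60 CPM (log2 -1.12, SE 0.25, edgeR adjusted p = 0.0458). With 1 library left out, Lrrn1 lost its call without any 1 control or RARdn 2 (edgeR adjusted p from 0.0530 to 0.0779) and Upk1a without any 1 library except RARdn 3 (0.0549 to 0.159). Both also lost it with a term for sex (0.348 for Lrrn1 and 0.294 for Upk1a) and with at least 1 CPM in 3 libraries (0.0531 and 0.0678), and Lrrn1 with scaling to mesenchyme (log2 0.23, edgeR adjusted p = 0.385). Of the other families the most abundant were Bnc2 (6.18 ± 1.73 and 8.88 ± 2.69 CPM, edgeR adjusted p = 0.248), Gpm6b (19.2 ± 1.03 and 24.9 ± 4.48 CPM, edgeR adjusted p = 0.0947) and Msc, the relative of Tcf21 (0.139 ± 0.0734 and 0.521 ± 0.109 CPM, edgeR adjusted p = 0.0818). Mslnl had at most 9 counts in a library and was not tested.

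Other cell types that could carry these transcripts were read by their own markers. The 8 members summed to 148, 84.2 and 96.6 CPM in control 1, 2 and 3 and to 145, 202 and 84.4 CPM in RARdn 1, 2 and 3. The 18 mesenchyme genes summed to 5853 to 7802 CPM in controls and 8519 to 11660 CPM in RARdn libraries, without overlap; all 18 had a log2 fold change above 0, 1 rose (Lum, log2 1.07, edgeR adjusted p = 0.0128, 0.0587 without control 2 and 0.0950 with a term for sex), and their median was 0.41. Members per 100 mesenchyme counts were 1.61 ± 0.248 and 1.39 ± 0.485 (exact permutation p = 0.5). Scaled to mesenchyme, 9545 of 18574 genes (51.4%) were called and the median of all genes was -0.59. Wt1 (log2 -0.62, edgeR adjusted p = 0.0254) and Msln (log2 0.67) were the 2 of 8 members called, a smaller share than that of all genes, and relative to the median of all genes they stood at -0.028 and 1.26. The part of mesenchyme in the levels of Tcf21 and of the other members was not tested.

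The neural and Schwann cell list of 12 genes, which bears on Gpm6a, summed to 229 to 268 CPM in controls and to 378, 159 and 163 CPM in RARdn 1, 2 and 3; 0 rose and 1 fell (Ret, a receptor tyrosine kinase gene). Of the 12, 10 had a log2 fold change above 0, with a median of 0.88, and 8 had an unadjusted p under 0.05. Without Ret, a sum taken after its values were seen, the controls summed to 111, 119 and 106 CPM, library 1 to 3, and the RARdn libraries to 293, 118 and 101 CPM. The part of neural cells in the level of Gpm6a was not tested. The 10 hepatic genes summed to 384 to 410 CPM in controls and to 1907, 594 and 387 CPM in RARdn 1, 2 and 3. Ttr alone gave 361 to 386 CPM of the control sums and 347, 310 and 363 CPM in RARdn libraries (log2 -0.14). Ahsg and Alb rose, but not in RARdn 3. Alb was at 1.15 to 2.93 CPM in controls and at 728, 134 and 2.75 CPM in RARdn 1, 2 and 3. Ahsg was at 0.0226 to 0.313 CPM in controls and at 53.1, 23.8 and 0.199 CPM in RARdn libraries. Liver also has a mesothelial cover, and its part in the members' levels was not tested. Markers of other tissues that make Wt1 differed among themselves. Of 8 kidney genes, Pax2, Pax8, Slc34a1 and Umod stayed at or below 0.199 CPM in every library, Cited1 was at 4.08 to 8.53 CPM and the podocyte gene Nphs1 at 81.4 to 127 CPM. Six2, a gene of nephron progenitors, was at 2.96 CPM in control 1, the control with the highest member levels, and at 0.112 to 0.654 CPM in the other 5 libraries. Of 8 gonad and adrenal genes, Nr5a1 stayed at or below 0.285 CPM, and Star was at 1.76 to 4.67, Cyp11a1 at 0.947 to 2.29 and Amhr2 at 0.654 to 1.29 CPM. The part of these tissues in the members' levels was not tested. Of 5 urothelium genes, Upk2, a defining gene of bladder lining, stayed at or below 0.104 CPM and Krt5 at or below 0.142 CPM. Upk1a was at 4.58 to 18.2, Upk3a at 2.25 to 10.1 and Grhl3 at 3.46 to 11.2 CPM. The part of bladder lining in the members' levels was not tested.

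Control 1, the control with the highest member levels, was female, and control 2, the only male control, had the lowest control level of 7 members, Upk1b being the exception. Against control 2 alone, all 3 male RARdn libraries were higher for Msln, Upk3b and Gpm6a, and 2 of 3 were for the other 5. No RARdn library was female, so with a term for sex the fitted genotype difference also rests on control 2 alone. With sex as a term in the edgeR fit no member was called, the members' median log2 fold change was 0.86, and Wt1 and Bnc1 turned to log2 fold changes of 0.21 and 0.35.

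**Figure D5:**
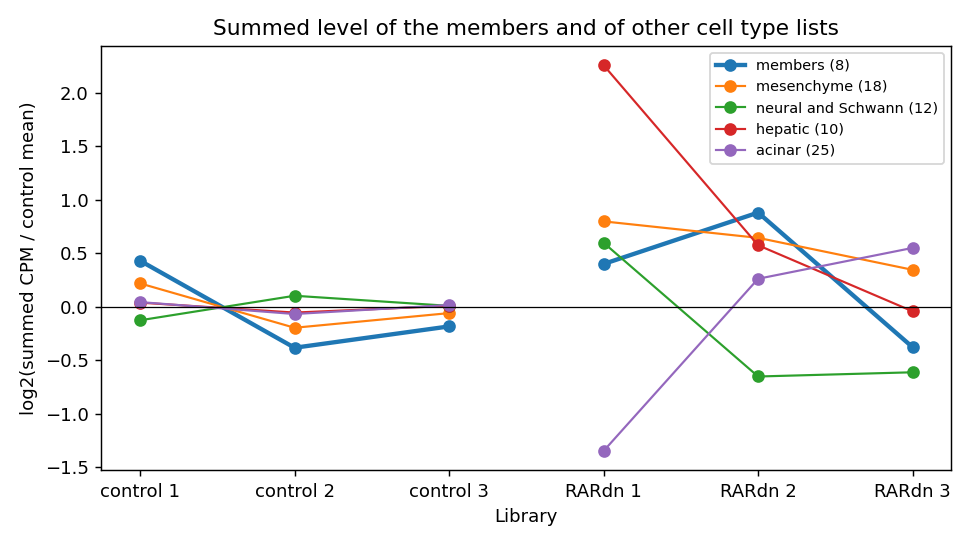
Summed CPM of the members and of 4 other cell type lists in each library, as log2 of the ratio to the control mean (vertical axis; the number of genes is in the key; lines join libraries of a group and imply no order). The members were highest in RARdn 2, the hepatic, mesenchyme and neural lists in RARdn 1, and the acinar list in RARdn 3.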

How the data were processed

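Raw read counts per gene were deposited by the authors, 1 table per sample. The submitters' processing notes name HISAT2, HTSeq, cutadapt, FastQC, DESeq2 and bedtools, and the builds mm10 and GRCm38; for versions, annotation and strand setting the sources used here give nothing. The 5 summary lines stayed out of library sizes and tests. Groups follow the sample titles. edgeR 4.0.16 in R 4.3.3 removed low genes (filterByExpr), scaled with TMM and compared RARdn with control by the 2-sided quasi-likelihood test with genotype alone; p-values were adjusted by Benjamini-Hochberg over 19070 genes, and called means an adjusted p under 0.05. SE was worked back from the fold change and the F statistic. The fit was tested on simulated data. Alternatives used DESeq2 1.42.0, limma 3.58.1 (voom), other filters and scalings, terms for sex and replicate number, and each library left out. Libraries of a group were not copies (chi-square per degree of freedom at least 13.8). Positions and lengths are from GENCODE M21 (GRCm38), promoters from RefSeq.

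The members and lists were chosen with earlier results of these data known. Named are all members; of the other mesothelial list the called genes and the 4 most abundant; of each relative's family the most abundant; of other lists up to 2 called; and the 5 nearest profiles. Genes outside this rule are said to be so, or serve as defining markers.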

Additional observations from a re-analysis of the deposited data

How the results depend on the processing

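None of the 8 members was called with TMM or RLE scaling, limma-voom, at least 1 CPM in 3 libraries, the acinar genes left out, the sex term or the replicate block; 1 was with DESeq2 and without a filter on low counts (Msln), 2 with scaling to mesenchyme, and 0 to 2 with 1 library left out. Genes called, 767 with TMM, were 2253 with DESeq2, 2346 without a filter, 217 with at least 1 CPM in 3 libraries and 9545 with scaling to mesenchyme. They were 61 with the sex term and 100 to 2980 with 1 library left out. As shares of the genes in each fit, 4.02% were called with TMM, 6.64% with DESeq2 and 6.92% without a filter. The share was 1.44% with at least 1 CPM in 3 libraries and 0.509% to 14.8% with 1 library left out. The other mesothelial genes called, 1 with TMM, were 0 with limma-voom, with at least 1 CPM and with the sex term, 3 without a filter, 8 with scaling to mesenchyme and 0 to 4 with 1 library left out. The members' median log2 fold change moved to -0.13 with scaling to mesenchyme and ran from 0.03 to 0.80 with 1 library left out. It was 0.86 with the sex term, where the genotype difference rests on control 2, the only male control. Scaling to mesenchyme called 51.4% of genes and moved the median of all genes to -0.59; relative to it the members' median was 0.46, beside 0.43 with TMM. Directions turned with this scaling for Upk1b (-0.14), Upk3b (-0.12), Lrrn4 (-0.43) and Gpm6a (-0.0052), and with the sex term for Wt1 (0.21) and Bnc1 (0.35). With 1 library left out, Wt1 ran from -0.39 to 0.19, Bnc1 from -0.30 to 0.24 and Lrrn4 from -0.22 to 0.36. The cause was not tested. The log2 ratio of the summed member level, 0.39, was 0.35 with TMM scaling and 0.40 with the acinar list left out of the CPM. It was 0.35 without Gpm6a and Tcf21 and 0.07 to 0.67 with 1 library left out. Taken per mesenchyme count, the summed level turned to a log2 ratio of geometric means of -0.26. The labels do not say what a replicate number shares, and same-numbered libraries did not deviate together (correlations 0.015, -0.083 and 0.195); the replicate block gave 817 genes called, a members' median of 0.40 and 1 other mesothelial gene. Counts of 95 to 4077 per member and library leave counting error small beside the spread between libraries.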
